A study of Mus musculus with 2 samples.

Results

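Mixed-keratin cells are cells of the mouse cervix that hold RNA of both the basal keratin pair, Krt5 and Krt14, and the luminal keratin pair, Krt8 and Krt18. They were chosen by unique molecular identifiers (UMIs, 1 per captured transcript). A cell needed at least 5 UMIs of Krt5 and Krt14 together and at least 5 of Krt8 and Krt18 together. It could have at most 2 UMIs of the mucous genes Muc5b, Tff1 and Agr2 together, at most 2 of Psca and none of the macrophage genes C1qa, C1qb and C1qc. Barcodes were kept as cells from 200 detected genes upward if mitochondrial genes gave no more than 20% of UMIs, which left 13981. Of these 1466 met the rule, 213 of 4760 in the control library and 1253 of 9221 in the progesterone library. Their comparison class, called basal-keratin-only cells, had the same Krt5 and Krt14 minimum and no UMI of Krt8 or Krt18, and numbered 2011 control and 986 progesterone cells.

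Keratins are intermediate filament proteins that assemble as a type I and a type II chain. Krt5 with Krt14 marks the basal layer of stratified epithelia and is expressed under the transcription factor p63 (Trp63), while Krt8 with Krt18 is the pair of simple, one-layered epithelia. The cervix holds both kinds of epithelium and their border, and cells carrying both pairs are known there from reserve cells beneath the columnar lining, from immature squamous metaplasia and from other glandular organs with basal and luminal layers.

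Both libraries came from cervices of female C57BL6/129 mice, ovariectomised at 7 to 8 weeks of age and left for 2 weeks to recover, with 9 mice pooled per library. The control mice were untreated over the 15 days of the experiment. The progesterone mice were injected subcutaneously with estradiol (E2) in corn oil, 100 µg per day for 2 days, and then carried a pellet of 25 mg progesterone made to release about 1 mg per day over 21 days. Tissue from below the transition zone, freed of vagina, was dissociated in cold protease at 4 °C for 60 min, strained at 40 µm and sequenced with the 10x Genomics 3′ kit, version 3.1. Ovariectomy is shared by both groups. Estradiol, the injections and the pellet set the groups apart along with progesterone itself, and their parts cannot be told apart.

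The control library held 5368 barcodes and 21658684 UMIs, the progesterone library 10853 barcodes and 44811069 UMIs. The libraries shared 19 barcode sequences, and no barcode was a mixed-keratin cell in both. With 1 pooled library per group there is no test between groups, and cells of 1 library are not replicates, so no p-value is given. Brackets hold 95% intervals, which reflect the error of counting and nothing else: exact Clopper-Pearson for shares, exact Poisson for levels and exact conditional binomial for ratios. Levels are UMIs per 1000000 UMIs of the summed class (CPM).

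Both keratin pairs are present in every cell by the rule, and the counts here describe how many UMIs were read. Per control cell, Krt5 and Krt14 together had from 5 to 1220 UMIs with a median of 34, and per progesterone cell from 5 to 446 with a median of 48. Krt8 and Krt18 together had a median of 7 UMIs in both libraries, with a highest value of 67 in control and 46 in progesterone cells. Krt18 had a UMI in 96.7% of control and 99.8% of progesterone mixed-keratin cells, and Krt8 in 82.2% and 68.2%. Both luminal keratins were read in 168 of 213 control cells (78.9%) and 852 of 1253 progesterone cells (68.0%). Trp63, which the rule did not use, had a UMI in 46 control cells (21.6%) and 544 progesterone cells (43.4%). In the mouse genome (GRCm38) Krt8 lies at chr15:101996698-102004482 on the minus strand and Krt18 at chr15:102028180-102032027 on the plus strand. Krt5 lies on the same chromosome at chr15:101707070-101712898, Krt14 at chr11:100203162-100207548, and Trp63 at chr16:25683763-25892102.

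The balance within the luminal pair differed between the libraries in mixed-keratin and mucous luminal cells. The rule selects on the sum of these 2 genes, so the ratios describe only cells past its minimum. Mixed-keratin cells held 1204 Krt18 and 864 Krt8 UMIs in control, a ratio of 1.39 [1.28 to 1.52], and 9163 and 2170 in progesterone, a ratio of 4.22 [4.03 to 4.43]. The balance also moved with the sum. Control cells with 5 or 6 luminal keratin UMIs held 339 Krt18 and 179 Krt8 UMIs, and those with 20 or more 259 and 258. For progesterone cells the numbers were 2322 and 422, and 1457 and 413. In mucous luminal cells, which had at least 5 luminal keratin UMIs, no Krt5 or Krt14 and at least 3 mucous UMIs, the ratio was 1.01 [0.806 to 1.26] in control and 2.72 [2.55 to 2.91] with progesterone. The few other luminal cells had the opposite order. In cells with luminal keratins, no Krt5 or Krt14 and at most 2 mucous and 2 Psca UMIs the ratio was 1.81 [0.952 to 3.57] in 7 control cells and 1.43 [1.17 to 1.74] in 31 progesterone cells. In luminal cells with at least 3 Psca UMIs it was 2.72 [1.92 to 3.90] in 14 control and 2.18 [1.51 to 3.19] in 7 progesterone cells. In both of these classes the intervals of the libraries overlap.

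Mixed-keratin cells were 4.48% [3.91 to 5.10] of control cells and 13.6% [12.9 to 14.3] of progesterone cells, 3.04 times the control share. Before the 3 exclusions, 346 control and 2116 progesterone cells had both keratin minimums. Of these, 41 and 745 cells exceeded the mucous limit, 111 and 34 the Psca limit, and 5 and 151 had a C1q UMI. Most of the removed control cells were thus over the Psca limit, and most of the removed progesterone cells over the mucous one. The share depends on depth, because the rule asks for UMIs of several genes. Mixed-keratin cells had a median of 6077 UMIs in control and 6210 with progesterone, against 3714 and 4215 over all kept cells and 4646 and 3194 in basal-keratin-only cells. At 4000 to 8000 UMIs per cell they were 7.29% [6.04 to 8.71] of 1536 control cells and 19.7% [18.4 to 21.0] of 3790 progesterone cells. At 8000 to 16000 UMIs the shares were 6.52% [4.78 to 8.65] and 31.0% [28.2 to 33.8], while at 500 to 2000 UMIs they were 0.799% [0.426 to 1.36] and 0.520% [0.260 to 0.929], which overlap. When each cell was thinned to 2000 UMIs before the rule was applied, leaving out 1628 control and 2115 progesterone cells that were shallower, the shares were 1.82% and 3.93%, a ratio of 2.16.

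The same difference was seen across the whole range of luminal keratin UMIs. Cells that met every part of the rule but the Krt8 and Krt18 minimum numbered 1329 in control and 2356 in progesterone at 4000 to 8000 UMIs per cell. Of these, 58.2% [55.5 to 60.8] of control cells and 13.6% [12.2 to 15.0] of progesterone cells had no luminal keratin UMI. At 3 or 4 UMIs, just outside the rule, stood 7.68% of control and 21.8% of progesterone cells, and at 5 or 6, just inside it, 3.76% and 13.2%. The progesterone library had the larger share in each step from 1 UMI upward, though the intervals overlapped at 20 or more, with 0.828% [0.414 to 1.48] and 1.44% [1.00 to 2.01]. From 3 or 4 UMIs to 5 or 6, steps of equal width on either side of the minimum, the numbers went from 102 to 50 control and from 513 to 312 progesterone cells.

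**Figure D1:**
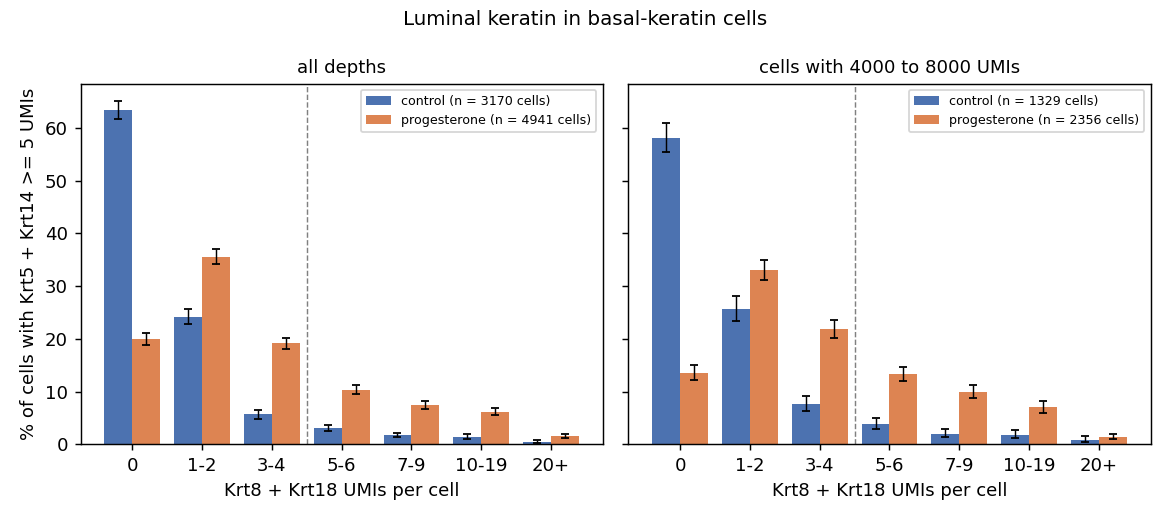
Bars give the percentage of cells with at least 5 Krt5 and Krt14 UMIs, under the mucous, Psca and C1q limits, by their number of Krt8 and Krt18 UMIs (x axis), in control (blue) and progesterone (orange) cells, with 95% Clopper-Pearson intervals. The dashed line is the minimum of 5 UMIs; at 4000 to 8000 UMIs per cell the bar at 0 is 58.2% for control and 13.6% for progesterone.

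Keratin RNA was also read in droplets with markers of other cell types. Both keratin minimums were met by 11 of 515 control cells with at least 10 leukocyte UMIs (2.14% [1.07 to 3.79]) and by 22 of 676 progesterone cells (3.25% [2.05 to 4.89]). Among cells with at least 5 fibroblast UMIs the shares were 2.44% [0.297 to 8.53] of 82 control cells and 3.82% [1.25 to 8.68] of 131 progesterone cells. Cells with at least 5 endothelial UMIs were few, and in neither library did any meet both minimums. They numbered 12 in control, where the interval ran from 0 to 26.5%, and 41 with progesterone, where it ran from 0 to 8.60%. Median depths in these marker groups, from 904 to 2879 UMIs, were under those of mixed-keratin cells. The mixed-keratin shares of all cells at 500 to 2000 UMIs, 0.799% and 0.520%, lie below these shares of leukocyte-marked cells. They are not measured alike, since the former also apply the mucous, Psca and C1q limits and a depth window. Shares at the depth of mixed-keratin cells were not measured in the other cell types, so these values set no background level for the shares above. A doublet caller marked 13 control mixed-keratin cells (6.10% [3.29 to 10.2]) and 96 progesterone ones (7.66% [6.25 to 9.28]), against 3.803% and 7.37% of all kept cells. The shares of all kept cells were set beforehand by a rate of 0.8% per 1000 cells. They are thus no measured difference between the libraries. In basal-keratin-only cells 4.03% of control and 2.43% of progesterone cells were called. At 4000 to 8000 UMIs the called shares of mixed-keratin and of all cells were 6.25% and 3.26% in control and 7.79% and 7.15% with progesterone. At 8000 to 16000 UMIs they were 6.82% and 3.70% in control and 9.67% and 14.4% with progesterone. The called share was thus larger among mixed-keratin than among all cells in 3 of these 4 settings, for which no intervals were computed. At 4000 to 8000 UMIs with progesterone the shares were close, and at 8000 to 16000 UMIs control had only 44 mixed-keratin cells. Leaving called doublets out gave shares of 4.37% and 13.55%. The part of free RNA and of uncalled joined cells in the shares was not tested.

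Against basal-keratin-only cells, mixed-keratin cells held less RNA of p63 and, at the median, of genes of basal adhesion. The rule split these classes by luminal keratin, so the comparison is a description. Of 10989 genes with at least 20 UMIs in the 2 control classes together, 854 (7.77%) were at least 2-fold higher in mixed-keratin cells and 464 (4.22%) at least 2-fold lower. In the progesterone library 502 (4.47%) of 11237 were higher and 464 (4.13%) lower. Over 10622 genes with enough UMIs in both libraries, 209 were higher in both, which is 27.0% of the 775 control calls and 51.6% of the 405 progesterone calls. The 99 genes lower in both were 24.9% of 397 control calls and 26.9% of 368 progesterone calls.

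Trp63, the master regulator of stratified epithelium, was at 55.3 CPM in control mixed-keratin cells and 114 in basal-keratin-only cells, a ratio of 0.487 [0.380 to 0.616]. With progesterone it was at 108 against 232 CPM, a ratio of 0.467 [0.424 to 0.514]. After thinning every cell to 2000 UMIs, which left out 13 control and 11 progesterone mixed-keratin cells and 393 and 285 basal-keratin-only cells, a Trp63 UMI was found in 9.00% against 20.2% of control cells and 17.2% against 37.4% of progesterone cells. Unthinned, the control shares were 21.6% and 37.2% and the progesterone shares 43.4% and 45.8%. The lower Trp63 level was therefore seen in both libraries and at equal depth. Its log2 ratio in control, -1.03, lay between -4.72 and -0.87 over 12 alternative settings, the lowest with 57 mixed-keratin cells, and that in progesterone, -1.10, between -2.12 and -0.82.

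The other basal keratins did not follow Trp63 together. Krt15, a keratin of basal cells, was higher in control mixed-keratin cells (3058 against 1692 CPM, ratio 1.81 [1.75 to 1.87]) and near its basal-keratin-only level with progesterone (3004 against 2866 CPM, ratio 1.05 [1.02 to 1.07]). Krt17, a basal and stress-responsive keratin, was lower in control (775 against 1974 CPM, ratio 0.393 [0.369 to 0.418]) and higher with progesterone (646 against 446 CPM, ratio 1.45 [1.37 to 1.54]).

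The 12 genes of basal adhesion were integrins, laminin-332 chains and hemidesmosome proteins, along with Cd44, Cdh3 and Bcam. Of these 12, 6 in control and 5 in progesterone were at least 2-fold lower and none was at least 2-fold higher. Their median log2 ratio was -0.91 in control and -0.93 in progesterone, beside 0.15 and 0.0086 over all genes. Col17a1, the transmembrane collagen of hemidesmosomes, was at 79.2 against 176 CPM in control (0.449 [0.366 to 0.546]) and 183 against 364 CPM with progesterone (0.503 [0.467 to 0.542]). Itgb4, the β4 integrin of hemidesmosomes, had ratios of 0.425 [0.329 to 0.542] and 0.494 [0.442 to 0.553]. Lamb3, a laminin-332 chain, had ratios of 0.181 [0.107 to 0.289] and 0.292 [0.237 to 0.358]. Itga6, the partner of Itgb4, was lower by less, with 0.759 [0.669 to 0.858] and 0.803 [0.743 to 0.869]. Itgb1, the β1 integrin, was the exception in control, with 1.26 [1.06 to 1.49], and stood at 0.835 [0.749 to 0.931] with progesterone.

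Genes of luminal and simple epithelium were higher in mixed-keratin cells of both libraries. Of 14 such genes, 12 in control and 9 in progesterone were at least 2-fold higher and none lower, with median log2 ratios of 1.93 and 1.14. Krt19, a keratin of simple epithelium that the rule did not use, was at 869 against 58.9 CPM in control (14.8-fold [13.4 to 16.3]) and 81.7 against 8.29 CPM with progesterone (9.86-fold [6.803 to 14.8]). After thinning, 52.5% against 7.60% of control cells and 8.62% against 0.999% of progesterone cells had a Krt19 UMI. Most progesterone mixed-keratin cells thus had no Krt19 UMI, 1062 of 1253 even without thinning. Cldn3, a tight junction claudin, was 19.5-fold [15.5 to 24.8] and 13.2-fold [6.86 to 29.2] higher, from 193 and 34.0 CPM in mixed-keratin cells, the second against only 9 UMIs in basal-keratin-only cells.

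Genes that many epithelial cells share differed by less. Epcam, the epithelial adhesion molecule, was at 643 against 193 CPM in control (3.33-fold [3.07 to 3.61]) and 505 against 242 with progesterone (2.09-fold [1.94 to 2.25]). Cldn7, another claudin, was 3.71-fold [3.41 to 4.03] and 5.27-fold [4.34 to 6.45] higher. Elf3, an epithelium-specific transcription factor, was 3.08-fold [2.58 to 3.65] and 2.22-fold [1.79 to 2.77] higher. Krt7, another simple-epithelial keratin, was 2.53-fold [2.34 to 2.72] higher in control and 1.16-fold [1.08 to 1.25] with progesterone, where it missed the 2-fold mark.

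Secretory genes followed with more unevenness. Of 12 secretory genes with enough UMIs, 10 were at least 2-fold higher in control and none lower, with a median log2 ratio of 2.79. In progesterone 7 were higher and 1 lower, with a median of 1.33. The limit on mucous genes and Psca removes the most secretory cells, so these levels are those of cells that passed it. Foxa2, a transcription factor of gland epithelium, was 6.05-fold [3.99 to 9.13] higher in control and 6.04-fold [3.96 to 9.65] with progesterone. Spdef, a transcription factor of goblet cells, was 22.6-fold [10.3 to 54.9] and 8.21-fold [4.50 to 16.7] higher, from 26 and 218 UMIs. Ltf, the iron-binding lactotransferrin, was at 4316 against 549 CPM in control (7.87-fold [7.58 to 8.16]) and 180 against 22.3 with progesterone (8.09-fold [6.44 to 10.3]). In the progesterone library 5 cells held 61.0% of the Ltf UMIs, and in control 17.0%. Wfdc2, a secreted protease inhibitor, was 9.34-fold [8.74 to 9.98] higher in control and 1.73-fold [1.66 to 1.81] with progesterone. Pigr, the receptor that carries immunoglobulin A across epithelium, was 21.6-fold [14.4 to 33.2] higher in control. With progesterone its ratio was 1.30 [0.725 to 2.44], an interval that spans equal levels.

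**Figure D2:**
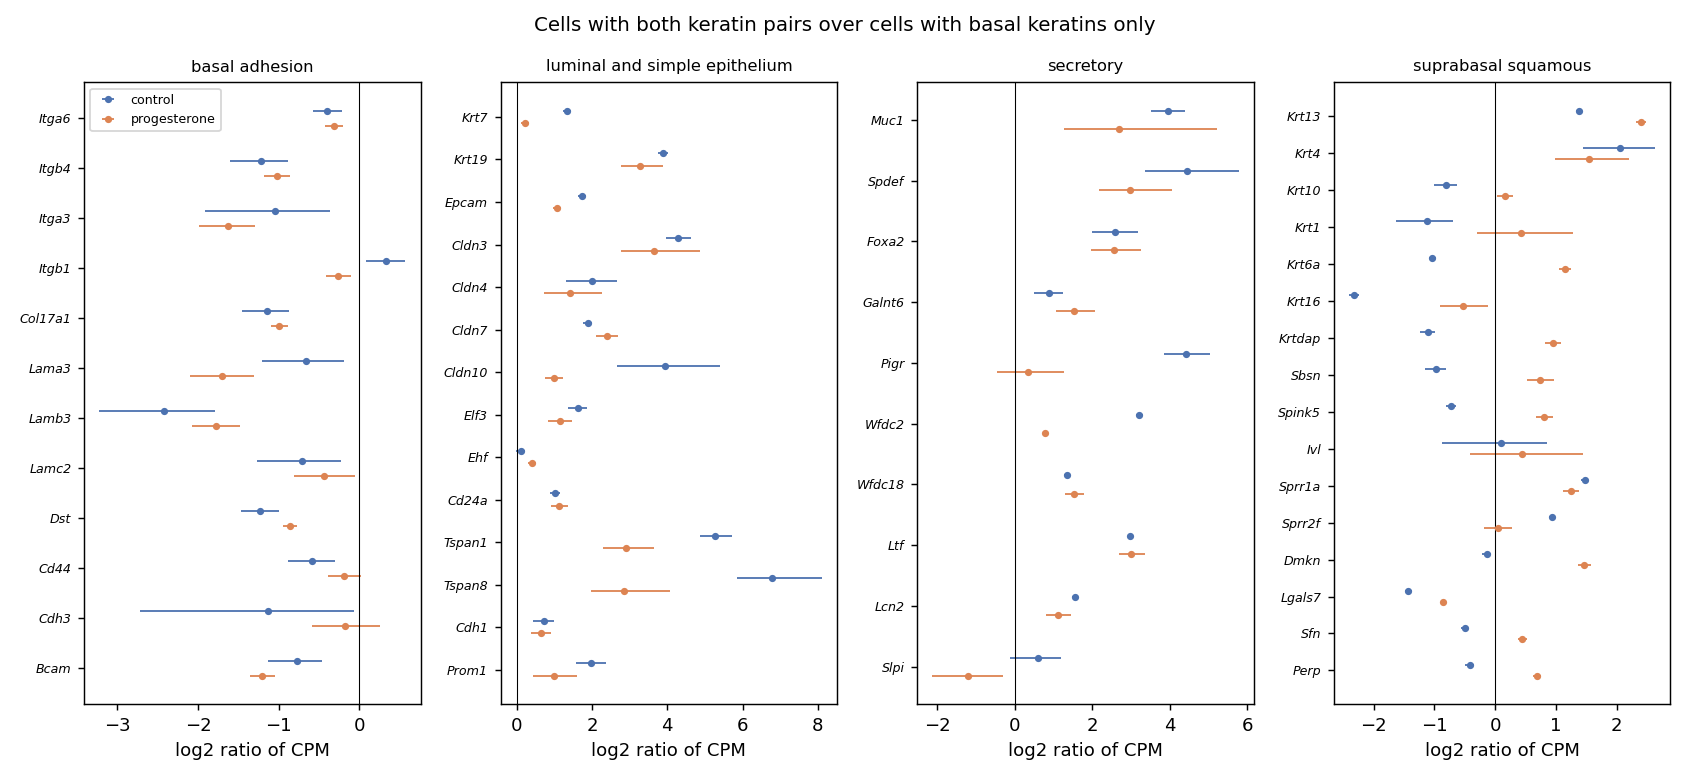
Points give the log2 ratio of CPM of mixed-keratin over basal-keratin-only cells (x axis) for each gene of 4 lists in control (blue) and progesterone (orange), with 95% intervals, and the line at 0 marks equal levels. Luminal genes lie to the right in both libraries, with medians of 1.93 and 1.14, and most adhesion genes to the left, while Krt6a lies on opposite sides.

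Suprabasal squamous genes had medians of opposite sign in the libraries, a difference that was not tested. Of 19 such genes in control, 4 were at least 2-fold higher and 6 lower, with a median log2 ratio of -0.50. Of 16 in progesterone, 5 were higher and none lower, with a median of 0.72. Krt13, the keratin of non-cornified stratified epithelium, was higher in both, at 2690 against 1034 CPM in control (2.60-fold [2.504 to 2.70]) and 1893 against 357 with progesterone (5.30-fold [5.01 to 5.62]). Its partner Krt4 was 4.14-fold [2.72 to 6.21] and 2.96-fold [1.97 to 4.61] higher. Krt6a, a keratin of activated and hyperproliferative epithelium, was lower in control, at 1856 against 3796 CPM (0.489 [0.470 to 0.509]), and higher with progesterone, at 724 against 326 (2.22 [2.08 to 2.37]). Krt16, its partner, was at 0.200 [0.189 to 0.212] of the basal-keratin-only level in control and 0.699 [0.531 to 0.923] with progesterone. In control 5 cells held 90.3% of the Krt16 UMIs. Krtdap, a differentiation peptide of upper layers, had ratios of 0.462 [0.424 to 0.503] and 1.94 [1.77 to 2.12], the second with a log2 ratio between 0.05 and 1.56 over the alternatives. Basal-keratin-only cells differed between the libraries in the same genes: Krt6a stood there at 3796 and 326 CPM and Krt16 at 4708 and 24.6 CPM.

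Desmosome genes showed few 2-fold differences, 1 higher and 2 lower of 10 in control and 1 higher of 10 with progesterone. The gene higher in both was Ppl, periplakin of the cornified envelope, at 2.82-fold [2.41 to 3.29] and 3.78-fold [2.98 to 4.86]. The lower ones in control were Pkp1, a plakophilin (0.479 [0.412 to 0.553]), and Dsc3, a basal desmocollin (0.414 [0.329 to 0.515]).

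Notch signalling steers basal cells towards suprabasal and luminal fates. Of 10 Notch genes, 1 was at least 2-fold higher and 1 lower in control, and 3 higher and 2 lower in progesterone. Notch3, a receptor, was 1.39-fold [1.05 to 1.82] higher in control and 3.52-fold [2.65 to 4.76] with progesterone. The Notch targets Nrarp and Hey1 were 5.51-fold [3.14 to 10.6] and 3.26-fold [2.19 to 5.01] higher with progesterone, and in control their ratios of 0.892 [0.553 to 1.38] and 1.63 [0.766 to 3.15] spanned equal levels. The ligand Jag2 was lower in both libraries, at 0.249 [0.141 to 0.408] and 0.276 [0.236 to 0.321]. The ligand Dll1 was at 0.167 [0.0983 to 0.276] with progesterone, with 3 UMIs in control mixed-keratin cells.

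The estrogen and progesterone receptors were read in both classes. Esr1, the estrogen receptor, was at 105 against 82.9 CPM in control (1.27 [1.06 to 1.52]) and 146 against 174 with progesterone (0.841 [0.763 to 0.928]). Pgr, the progesterone receptor, was at 14.2 against 45.5 CPM in control (0.312 [0.186 to 0.492]), a log2 ratio of -1.65 that lay between -2.63 and -0.53 over 12 alternatives, and at 53.0 against 53.5 with progesterone (0.991 [0.833 to 1.18]). Of the steroid response genes, Greb1, an estrogen-induced cofactor, was at 0.116 [0.0238 to 0.345] of the basal-keratin-only level in control, from 3 UMIs, and 0.580 [0.467 to 0.723] with progesterone. Igfbp5, an IGF-binding protein, was at 17.4 against 76.9 CPM with progesterone (0.226 [0.184 to 0.278]) and at 1.29 [0.711 to 2.21] in control.

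Cycling cells were found among mixed-keratin cells of both libraries. After thinning, 14.0% [9.51 to 19.6] of control and 9.82% [8.22 to 11.6] of progesterone mixed-keratin cells had at least 2 UMIs of 12 proliferation genes, against 17.9% [16.1 to 19.9] and 7.85% [5.97 to 10.1] of basal-keratin-only cells. Both pairs of intervals overlap. Of the 12 genes none passed 2-fold in control. In progesterone 3 were higher, the cyclins Ccnb1 and Ccnb2 and the centromere protein Cenpf, at 4.10-fold [2.14 to 8.82], 2.90-fold [1.68 to 5.37] and 2.73-fold [2.18 to 3.45]. Cenpf lay below equal levels, at a log2 ratio of -0.28, when cells were thinned before the rule was applied.

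Of 5 progenitor genes with enough UMIs, 2 were higher in control, Olfm4 and Aldh1a3, and Axin2 was lower with progesterone. Aldh1a3 rested on 6 UMIs in control mixed-keratin cells. After thinning it was read in 1 of 200 of them and in 6 of 1618 basal-keratin-only cells. Axin2 had 13 UMIs in progesterone mixed-keratin cells. Olfm4, a secreted glycoprotein of epithelial crypts, was at 156 against 3.05 CPM in control (51.2-fold [35.2 to 76.8]), with a UMI in 62 of 213 cells. With progesterone it was at 12.6 against 11.2 CPM (1.13 [0.774 to 1.67]), with a UMI in 56 of 1253 cells. Thinned shares were 19.5% against 0.494% in control and 1.85% against 2.43% in progesterone. Of 11 stress and immediate early genes, 1 was higher in control, Fos (4.32-fold [2.83 to 6.50]), and none passed 2-fold in progesterone.

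Markers of other cell types were read in mixed-keratin cells at levels that differed between the lists. The 13 leukocyte markers summed to 547 CPM in control and 238 in progesterone mixed-keratin cells, against 898 and 712 in basal-keratin-only cells. In control mixed-keratin cells S100a8 and S100a9 held 208 and 359 of the 732 UMIs, so that sum rests mostly on this pair. The part of leukocytes in these sums was not tested. The T and NK cell genes Cd3e and Nkg7 were at 0 in mixed-keratin cells, and 8.45% of control and 1.28% of progesterone ones had at least 3 leukocyte UMIs, against 9.00% and 2.13%. The 9 fibroblast and muscle markers summed to 71.7 and 19.5 CPM, against 20.5 and 109. In control the excess was Dcn, of whose 80 UMIs 79 lay in 1 cell. The 6 endothelial markers summed to 7.47 and 4.15 CPM, against 6.38 and 6.86, with 2 of the 6 at 0 in mixed-keratin cells of each library. The 4 globin genes summed to 1267 and 1404 CPM, against 1922 in control and 11350 in progesterone basal-keratin-only cells. The part of these RNAs in the other differences was not tested.

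The genes with the strongest contrast by the interval bound nearest to equality were chosen by a fixed rule. In control the 5 highest were Tspan8, Olfm4, Tspan1, Cxcl17 and Cldn3. Tspan8 and Tspan1, tetraspanins of simple epithelia, were 117-fold [57.3 to 276] and 38.9-fold [29.1 to 52.8] higher, and the mucosal chemokine Cxcl17 35.8-fold [25.9 to 50.4]. These UMIs were spread over 58, 78 and 72 of the 213 cells. The 5 lowest were Igfbp2, Mt4, BC100530, Krt16 and Fabp5, with Igfbp2, an IGF-binding protein, at 2.24 against 96.7 CPM and Fabp5, a fatty acid carrier of keratinocytes, at 1666 against 7771. In progesterone the 5 highest were Prap1, Krt19, Ltf, Serpinb11 and Tmem213. Prap1 was at 127 CPM, but 5 cells held 95.1% of its UMIs. Tmem213 was spread over 726 of 1253 cells and stood at 400 against 65.2 CPM (6.13-fold [5.36 to 7.04]). The 5 lowest with progesterone were Ctla2a and the globins Hbb-bt, Hbb-bs, Hba-a2 and Hba-a1, with Ctla2a, a protease inhibitor-like gene, at 16 against 226 UMIs. Its log2 ratio of -5.05 lay between -5.74 and -0.23 over the alternatives. The globins are genes of red blood cells. Globins, Sprr2 genes and Krt6a with Krt6b have near-identical copies, so how their reads were divided between copies is uncertain.

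Among progesterone cells with the Krt5 and Krt14 minimum the levels differed step by step with luminal keratin. At 4000 to 8000 UMIs per cell, Trp63 stood at 237 CPM in cells with no Krt8 or Krt18 UMI, 175 at 3 or 4 UMIs, 147 at 5 or 6, 116 at 7 to 9, 86.1 at 10 to 19 and 9.40 at 20 or more. Col17a1 went in the same steps from 356 over 277, 227, 207 and 160 to 79.9 CPM. Krt13 went the other way, from 315 over 679, 1073, 1345 and 2164 to 3646 CPM. These steps run through the minimum of 5 UMIs. Whether they come from graded cells or from a mixture of distinct ones was not tested.

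Other genes were higher mainly in the upper steps. Over all depths, Krt19 with progesterone was at 8.29 CPM at no luminal keratin UMI, 22.7 at 3 or 4, 22.9 at 5 or 6, 70.1 at 7 to 9, 114.5 at 10 to 19 and 291 at 20 or more. Over all depths, the steps on either side of the minimum of 5 were thus alike in Krt19. They differed in progesterone cells of 4000 to 8000 UMIs. Krt19 was there at 21.3 CPM [16.3 to 27.4] at 3 or 4 and 8.92 [5.1 to 14.5] at 5 or 6. At 4000 to 8000 UMIs, Cldn3 was at 2.29 CPM at 0 luminal keratin UMIs, 12.1 at 7 to 9, 65.9 at 10 to 19 and 202 at 20 or more. Wfdc2 stayed between 788 and 959 CPM up to 9 UMIs and stood at 1857 and 4595 in the top steps. Krt15 stayed between 2955 and 3289 CPM up to 19 UMIs and was at 2011 in the 34 cells at 20 or more. The top steps held 165 and 34 progesterone cells. In control, with 24 and 11 cells there, Trp63 had no UMI in either, Krt19 was at 1395 and 3542 CPM against 88.0 at no luminal keratin, and Krt13 was at 2841 and 3106 against 984.

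**Figure D3:**
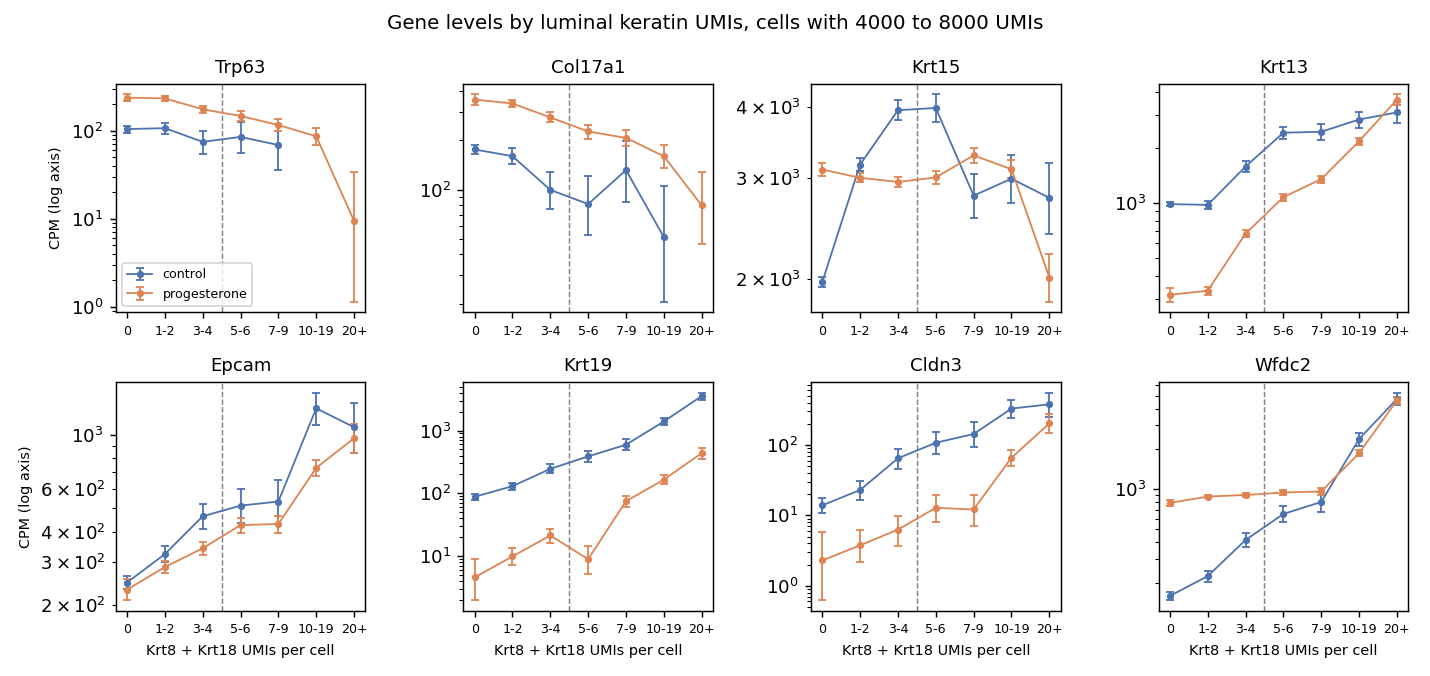
Each panel plots the level of a gene in CPM (log axis) by the number of Krt8 and Krt18 UMIs per cell, for cells with at least 5 Krt5 and Krt14 UMIs and 4000 to 8000 UMIs in all, with 95% Poisson intervals. Levels of 0 cannot be drawn on a log axis and are left out (Trp63 in control from 10 UMIs, Col17a1 in control at 20 or more); Trp63 and Col17a1 go down and Krt13 up along the axis.

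The mixed-keratin cells themselves ranged from mainly basal to mainly luminal keratin. Luminal keratins made up under 25% of the 4 keratins' UMIs in 116 control (54.5%) and 993 progesterone cells (79.3%). They made up 25 to 50% in 59 and 198 cells, 50 to 75% in 38 and 52 cells, and more in no control and 10 progesterone cells. Trp63 was at 77.5, 10.8 and 6.33 CPM over the 3 control groups, and at 117, 76.2, 29.0 and 0 over the 4 progesterone groups. Krt19 was at 354, 1869 and 2049 CPM in control, and at 34.6, 201, 609 and 1091 with progesterone. Cldn3 was at 62.0, 392 and 595 CPM, and at 14.3, 72.3, 297 and 461. Krtdap was at 629, 18.0 and 0 CPM, and at 367, 118, 43.5 and 0. Krt13 did not follow this balance, with 2535, 3417 and 2302 CPM in control and 1864, 2074, 1860 and 2305 with progesterone. Called doublets were 10, 1 and 2 cells in the control groups and 76, 16, 3 and 1 in the progesterone groups, 7.65%, 8.08%, 5.77% and 10.0% of the latter.

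**Figure D4:**
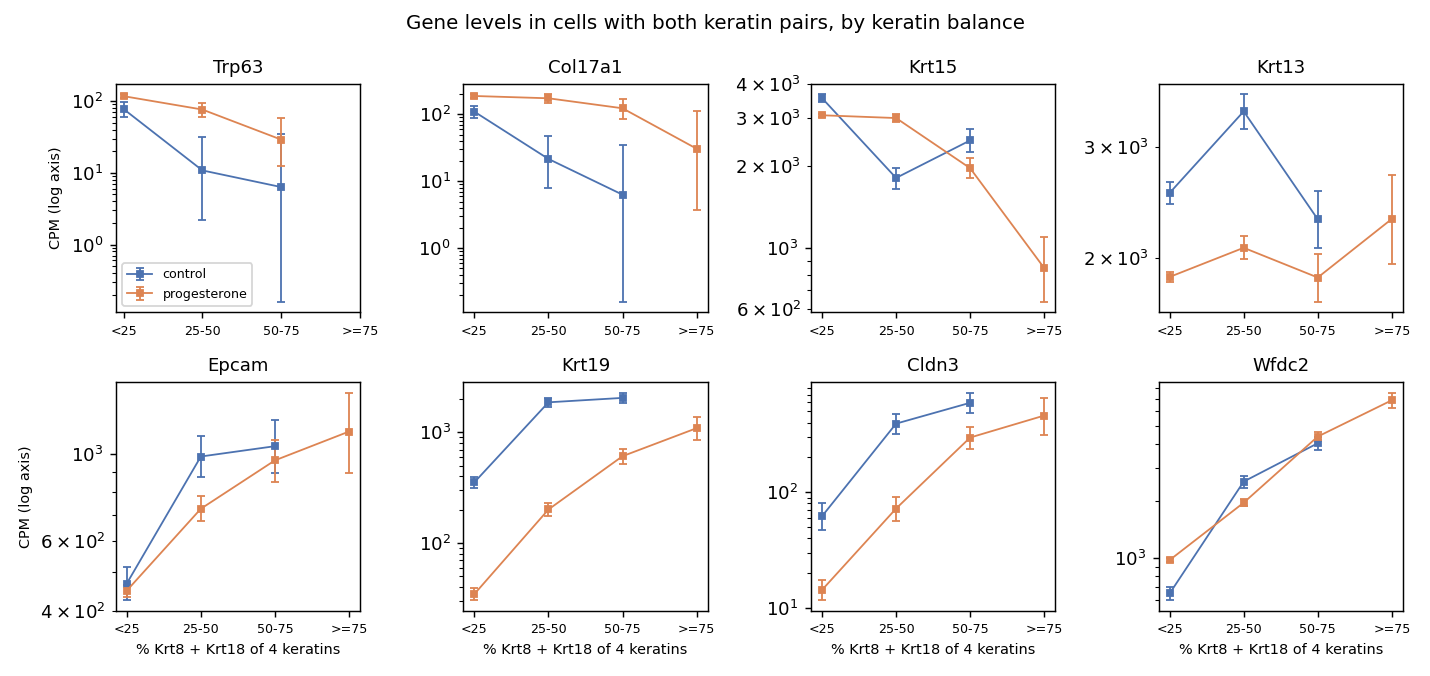
Mixed-keratin cells were grouped by the percentage of Krt8 and Krt18 in the UMIs of the 4 keratins (x axis), and each panel plots a gene's summed level in CPM (log axis) with 95% Poisson intervals, for control (blue, 3 groups) and progesterone (orange, 4 groups). Trp63, at 0 in the last progesterone group and not drawn there, goes down, Krt19, Cldn3 and Wfdc2 go up, and Krt13 stays between 1860 and 2305 CPM with progesterone.

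Set against luminal cells without basal keratin, the mixed-keratin cells of the progesterone library had high squamous and basal levels and low levels of most luminal genes. Against 300 mucous luminal cells, 1280 (11.6%) of 11063 genes were at least 2-fold higher and 2103 (19.0%) lower. The mucous limit of the rule separates these classes as well. Of 14 luminal genes 11 were lower and none higher, and of 18 secretory genes 17 were lower and 1 higher. Trp63 was at 108 against 6.03 CPM (18.0-fold [9.09 to 41.8]), Col17a1 at 183 against 22.6 CPM and Krt15 at 3004 against 129 CPM. Krt19 was at 81.7 against 779 CPM, Cldn3 at 34.0 against 327 CPM, and Olfm4 at 12.6 against 2853 CPM. Of 12 proliferation genes 11 were at least 2-fold higher in mixed-keratin cells, among them Mki67, a nuclear protein of cycling cells, at 68.7 against 2.26 CPM from 3 UMIs in mucous luminal cells. After thinning, 1.15% [0.237 to 3.31] of mucous luminal cells counted as cycling, against 9.82% [8.22 to 11.6] of mixed-keratin cells.

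Luminal cells within the mucous and Psca limits numbered 31 with progesterone and 7 in control. Against the 31, 1446 (13.5%) of 10687 genes were higher in mixed-keratin cells and 2308 (21.6%) lower. The 5 highest were Lgals7, Krt17, Dmkn, Krt6a and Krtdap, all squamous genes. Krt17, Dmkn and Krtdap had no UMI in the luminal cells. At a floor of 3 UMIs over that class, Krt17 was at least 29.9-fold and Dmkn at least 27.6-fold higher in mixed-keratin cells. The lowest were Prap1, Serpina1e, Car2, C3 and Fam213a, with Prap1 at 127 against 68390 CPM. The 7 control cells held 11754 UMIs in all, so that 3 UMIs there equal 255 CPM. Of 6390 control genes 368 (5.76%) were higher and 2838 (44.4%) lower, and both counts rest on these few UMIs. By the fixed rule Sprr1a, Ifitm3, Lgals7, Ly6d and Krt6a were highest there, and Gm42418 and Malat1 lowest. The signs for Ifitm3, Ly6d and Gm42418 turned when cells were thinned before the rule.

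Luminal genes in mixed-keratin cells reached very different parts of their luminal level. Taking the 338 progesterone cells with luminal keratins and no basal keratin together, Krt18 in mixed-keratin cells was at 47.0% of their level and Krt8 at 28.4%, as the rule selects. Krt7 was at 83.6%, Ehf, an epithelial transcription factor, at 48.9%, Cldn10 at 45.4%, Elf3 at 38.8%, Cldn7 at 36.7% and Epcam at 31.0%. Lower were Wfdc2 at 12.4%, Cldn3 at 9.49%, Krt19 at 7.58% and Olfm4 at 0.513%. These percentages do not take off the level in basal-keratin-only cells. Krt7 stood there at 272 CPM, with 316 in mixed-keratin and 378 in the luminal cells. Ehf stood at 259, 341 and 697 CPM in the same order. In control, against 30 such luminal cells, Ehf was at 156%, Cldn7 at 69.6%, Epcam at 67.1% and Cldn3 at 44.2%. Krt7 was at 33.3%, Krt19 at 20.4%, Wfdc2 at 17.7% and Olfm4 at 8.91%. Of the 338 progesterone luminal cells 300 were chosen for at least 3 mucous UMIs, where mixed-keratin cells could have at most 2. Of the 30 control ones 9 were chosen so and 14 by Psca. The percentages above and the places below are thus in part set by the rule. In progesterone, 172 genes were at least 10-fold higher in the luminal than in basal-keratin-only cells. The place of mixed-keratin cells between both levels had a median of 3.73% of the way to the luminal level. The quartiles were 1.18% and 8.90% and the highest value was 43.0%. In control, with 35 such genes, the median was 5.95%. Krt13 lay outside both, at 208% of the luminal level with progesterone and above the basal-keratin-only level too.

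The count of genes above every other keratin class depended on how the small luminal classes were treated. With Psca luminal cells, defined like the mucous ones but by at least 3 Psca UMIs, as the fourth class, 1 of 6342 control genes (0.0158%) was at least 2-fold above all 4 classes. It was Il33, an alarmin cytokine of barrier epithelium, at 481 CPM against 209 in basal-keratin-only cells, the next highest. In progesterone 20 of 10624 genes (0.188%) were, led by Timp3, Cenpf, Dapl1 and Lypd3. With the 3 luminal classes pooled, 48 (0.757%) control and 74 (0.697%) progesterone genes were, a setting chosen after seeing the data. Timp3, an inhibitor of matrix metalloproteinases, was at 123 CPM against 42.6 in the next class (2.89-fold), and Dapl1, a gene of epithelial differentiation, at 649 against 281 (2.31-fold). Krt13 was just short of the mark at 1.98-fold, with 1893 CPM against 957.

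Between the libraries, mixed-keratin cells of the progesterone group had lower levels of most luminal and secretory genes and higher levels of Pgr and some Notch genes. Of 10925 genes 837 (7.66%) were at least 2-fold higher and 951 (8.7%) lower, with a median log2 ratio of -0.11. When CPM was taken without mitochondrial, ribosomal protein and the 20 most abundant genes, 1334 were higher and 583 lower, so directions near the median depend on the scaling. In basal-keratin-only cells 1186 (10.5%) of 11334 were higher and 905 (7.98%) lower. Both comparisons draw on the same pair of libraries.

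Of 14 luminal genes 9 were at least 2-fold lower with progesterone and 1 higher, with a median log2 ratio of -1.44. Krt19 was at 81.7 against 869 CPM (0.0941 [0.0855 to 0.104]), with a UMI in 15.2% against 66.7% of cells. Cldn10, a claudin, was the gene that was higher, at 107 against 11.95 CPM (8.92-fold [5.46 to 15.7]). Epcam differed by less, at 0.785 [0.729 to 0.845]. Of 14 secretory genes 8 were lower and 1 higher, with a median of -3.14. Ltf was at 180 against 4316 CPM (0.0418 [0.0395 to 0.0442]), Lcn2, a siderophore-binding protein, at 61.6 against 1688 (0.0365 [0.0331 to 0.0402]) and Olfm4 at 12.6 against 156 (0.0805 [0.0631 to 0.102]). In basal-keratin-only cells Ltf had a like ratio, 0.0406 [0.0321 to 0.0508], while Olfm4 was higher with progesterone, at 3.66 [2.23 to 6.03] from 32 and 39 UMIs. The secretory gene that was higher in mixed-keratin cells was Clca1, a mucus-processing protein, with 411 against 13 UMIs (5.02-fold [2.90 to 9.50]).

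Most basal genes named here were level or higher with progesterone, and of 12 adhesion genes 3 were at least 2-fold higher and 1 lower. Trp63 was at 108 against 55.3 CPM (1.96-fold [1.55 to 2.52]), close to its ratio of 2.05 [1.87 to 2.24] in basal-keratin-only cells. Col17a1 was 2.31-fold [1.90 to 2.84] and Dst, a hemidesmosome plakin, 2.49-fold [2.12 to 2.94] higher. Krt15 was equal, at 0.982 [0.951 to 1.02], where basal-keratin-only cells had 1.69 [1.65 to 1.74]. Lama3, a laminin chain, was lower, at 0.414 [0.279 to 0.626].

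Of 17 suprabasal genes 9 were lower and none higher with progesterone, with a median of -1.08, and of 19 in basal-keratin-only cells 16 were lower, with a median of -2.62. Krt6a was at 0.390 [0.372 to 0.409] of the control level in mixed-keratin cells and 0.0859 [0.0809 to 0.0911] in basal-keratin-only cells. Krt13 was at 0.704 [0.679 to 0.730] and 0.345 [0.325 to 0.366]. Sprr1a, a cornified envelope precursor, was alike in both, at 0.139 [0.132 to 0.146] and 0.163 [0.149 to 0.178]. Whether these differences between the classes exceed the spread between animals was not tested.

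Pgr was 3.73-fold [2.36 to 6.26] higher, from 19 control UMIs, against 1.17 [0.986 to 1.39] in basal-keratin-only cells. Esr1 was 1.39-fold [1.17 to 1.67] higher. Tsc22d3, a gene induced by glucocorticoids and progesterone, was 5.17-fold [2.17 to 16.1] higher from 5 control UMIs, and 5.16-fold [3.68 to 7.28] in basal-keratin-only cells. Of 10 Notch genes 5 were higher and 1 lower, with a median log2 ratio of 0.72. Basal-keratin-only cells had a like median, 0.69, with 3 of 10 higher and 2 lower. In mixed-keratin cells Notch1 was 2.43-fold [1.92 to 3.10], the ligand Jag1 2.55-fold [1.88 to 3.55] and the target Hes1 2.33-fold [1.90 to 2.88] higher. Notch2 was at 0.492 [0.372 to 0.659] there.

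**Figure D5:**
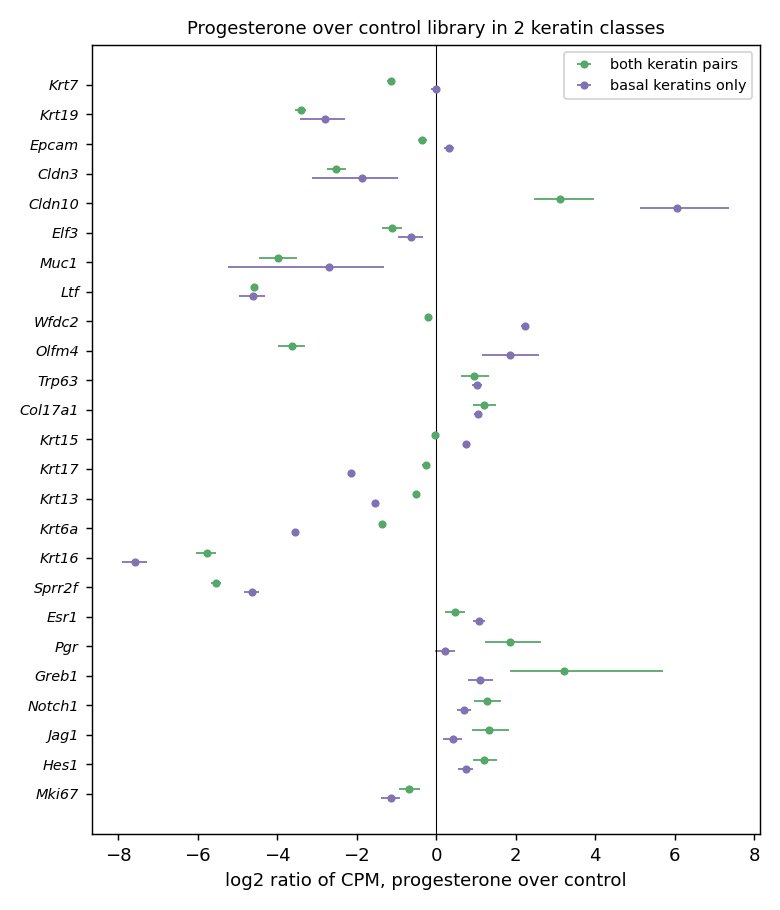
Points give the log2 ratio of CPM of the progesterone over the control library (x axis) for 25 genes in mixed-keratin cells (green) and basal-keratin-only cells (purple), with 95% conditional binomial intervals. Krt19 and Ltf lie far to the left and Trp63 and Col17a1 to the right in both classes, while Olfm4 lies on opposite sides and Pgr is higher in mixed-keratin cells.

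By the fixed rule the 5 genes highest with progesterone were Prap1, Ntrk2, Sv2b, Timp3 and Hpgds. Prap1 was read in 48 of 1253 progesterone and 2 of 213 control cells, and 5 cells held 95.1% of its progesterone UMIs. Ntrk2, a neurotrophin receptor, was read in 583 of 1253 progesterone and 9 of 213 control cells, at 123 against 8.21 CPM (14.9-fold [8.30 to 30.0]). Hpgds, a prostaglandin D synthase, was read in 563 and 10 cells, at 109 against 9.71 CPM (11.2-fold [6.53 to 21.2]). Timp3 was 12.7-fold [7.39 to 23.9] higher, and 12.8-fold [8.55 to 19.7] in basal-keratin-only cells. The 5 lowest were Sprr2d, Gm10036, Krt16, Sprr2f and Spink12. The log2 ratio of Krt16, -5.77, lay between -5.96 and -1.16 over 12 alternatives. Sprr2f, a cornified envelope precursor, was at 65.4 against 3045 CPM (0.0215 [0.0196 to 0.0235]), read in 60 of 1253 and 129 of 213 cells. Sprr2d was at 15.6 against 1720 CPM and Spink12, a protease inhibitor, at 15.4 against 684. The progesterone UMIs of Sprr2d and Spink12 lay in 11 and 6 cells.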

How the data were processed

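Cells of 2 cervix libraries, 1 pool of 9 mice each, were analysed from the deposited filtered matrices, which hold raw UMI counts per gene and barcode, per the file headers. The submitters' processing notes name Cell Ranger 3.0.2 and mm10. Of 31053 listed genes 30934 are in GENCODE release M21 (GRCm38), the source of positions. Mixed-keratin cells and classes were taken by raw UMIs (Python 3.11.15, numpy 2.4.6, scipy 1.17.1, pandas 2.3.3). The members and the gene lists were chosen with earlier results of these data known.

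UMIs were summed per class and library. A gene was compared with at least 20 UMIs in both classes together. Rule genes and mitochondrial genes were left out. A gene was called past 2-fold on a log2 scale with 0.5 added to each sum. Named genes were the 5 highest and 5 lowest by the interval bound nearest to 1, with at least 100 UMIs and 50 CPM on the higher side, besides genes of the 16 lists and the leading genes above every class. Genes whose UMIs lay in few cells were looked at after their values were seen. Scrublet (scanpy 1.11.5) called doublets at 0.8% per 1000 cells, which were kept. Thinning drew 2000 UMIs per cell. The ratio calculation was tested on simulated data. Empty droplets were not used here. Some results are not reported here.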

Additional observations from a re-analysis of the deposited data

Results flagged for a closer look

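Krt6a and Dcn were at least 2-fold apart between mixed-keratin and basal-keratin-only cells in opposite directions in the 2 libraries. Krt6a had a log2 ratio of -1.03 in control and 1.15 with progesterone. It kept both signs under each of 12 alternatives, from -1.45 to -0.86 in control and from 0.55 to 1.60 with progesterone. Dcn, a fibroblast proteoglycan, had a log2 ratio of 2.46 in control and -1.08 with progesterone, and 79 of its 80 UMIs in control mixed-keratin cells lay in 1 cell. With 1 library per group these differences between the libraries were not tested.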

How the results depend on the processing

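No paired analysis was possible because each group has 1 library. Under each of 9 alternatives mixed-keratin cells were more common in the progesterone library, by ratios from 2.05 to 3.41. Control and progesterone shares were 5.74% and 17.0% for cells of 500 or more genes and up to 10% mitochondrial UMIs, 1.82% and 3.93% (ratio 2.16) thinned to 2000 UMIs, 8.97% and 24.3% at a keratin minimum of 3 UMIs, 1.11% and 3.796% at 10, 7.11% and 21.7% at 4000 to 12000 UMIs, and 3.24% and 7.299% (ratio 2.26) with mucous genes and Psca at 0. Without cells of at least 3 leukocyte UMIs the progesterone share was 15.0%. With at least 2 UMIs each of Krt8 and Krt18, an alternative chosen after seeing the data, the shares were 2.69% and 5.50% (ratio 2.05).

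Against basal-keratin-only cells, the control counts of genes past 2-fold higher and lower were 2236 and 1025 thinned, from 57 mixed-keratin cells, 1906 and 921 at a keratin minimum of 10, and 3624 and 775 with no UMI minimum per gene. The lower control count was 723 with mean per-cell CPM, and the higher one 1318 with 2 UMIs of each luminal keratin. The progesterone counts were 1385 and 2032 with no UMI minimum, and 777 lower thinned. Against luminal-keratin-only cells, control counts were 133 and 107 thinned, 9623 lower with no UMI minimum and 1446 lower with 2 UMIs of each luminal keratin. Progesterone counts were 351 and 498 thinned, 1513 lower at a minimum of 10 and 6917 lower with no UMI minimum. Progesterone against control, mixed-keratin cells had 285 higher and 626 lower genes thinned, 1259 and 3608 with no UMI minimum, and 1334 and 583 with the other scaling.

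Genes above every keratin class in control numbered 2 without doublets, with 500 genes and 10% mitochondrial UMIs, or without leukocyte UMIs, 4 thinned or with 2 UMIs of each luminal keratin, 0 at a keratin minimum of 3, and 48 with the luminal classes pooled, also chosen after seeing the data. In progesterone they numbered 31 with 500 genes and 10% mitochondrial UMIs, 2 thinned, 11 at a minimum of 3 or with mean per-cell CPM, 38 at 10, 9 at 4000 to 12000 UMIs, 33 with 2 UMIs of each luminal keratin and 74 pooled. The causes were not tested.

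Over 143 gene results, 1627 of 1700 alternatives kept the sign and 73 did not, 8 of them of a result past 2-fold. Dcn in control against basal-keratin-only cells went to a log2 ratio of -2.51 without doublets and -0.00523 at a keratin minimum of 3, in progesterone to 0.0076 at 10, and progesterone against control to 2.92 without doublets. Thinned, Cenpf with progesterone went to -0.28, and against the control luminal-keratin-only cells Ifitm3 went to -1.61, Ly6d to -0.030 and Gm42418 to 0.23. That class had no cell at a keratin minimum of 10 or at 4000 to 12000 UMIs, so its comparison was not run there. Depth limits low genes in control more than with progesterone, with 1339165 UMIs in mixed-keratin cells against 8442335.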
